A study of Mus musculus with 12 samples.

Results

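The genes described here are 10 interferon-stimulated genes that sense or restrict viral RNA: Oas1a, Oas2, Oas3, Oasl1, Oasl2, Mx1, Mx2, Rsad2, Ifih1 and Dhx58. They were chosen by symbol, with earlier results of these data known, and all 10 were found among the 40853 symbols of the deposited tables. The mice carried the WT genotype or were labelled KPNA4 KO, that is, knockout for the gene of an importin alpha protein that carries cargo into the nucleus. Every mouse was 8 to 9 weeks old and had been given bacterial lipopolysaccharide (LPS, an inflammatory stimulus; 1 mg/kg, intraperitoneally) 20 h before the brain was taken, so WT and KO share the stimulus. Mice without LPS were not analysed here, and no value below is an induction. Microglia and astrocytes were sorted by flow cytometry from whole brain, giving 4 groups of 3 libraries, and each of the 6 animals gave 1 library of each cell type. The strain and the way in which the knockout was made, including whether it is confined to a cell type, are not stated in the sources used here, nor are the surface markers used for sorting. The question was how gene expression in each glial cell type after an inflammatory stimulus depends on Kpna4.

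Double-stranded RNA in the cytoplasm is bound by the helicases RIG-I and MDA5, which signal through the adaptor MAVS to the interferon genes. Secreted type I interferon then acts through its receptor and the transcription factor complex ISGF3 on genes that carry an interferon-stimulated response element. Among these are the oligoadenylate synthetases (OAS), whose product is a second messenger of antiviral defence, the dynamin-like Mx GTPases, and the MDA5 and RIG-I genes themselves. In the brain, microglia and astrocytes both respond to type I interferon, and LPS reaches that pathway through Toll-like receptors rather than through viral RNA.

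The response element was looked for in the promoters of these genes, and the stretches that hold it are shown first. RefSeq promoter windows of 300 bases (250 before and 50 after the gene start, build GRCm38.p6) were at hand for 6 of the 10 genes: Oas1a, Oas3, Oasl1, Oasl2, Rsad2 and Ifih1. Oas2, Mx1, Mx2 and Dhx58 had no entry. The motif, GAAA followed by any 2 bases and a second GAAA, was searched on both strands, overlaps included. It was found in 4 of the 6 windows (66.7%), against 1079 of 27025 genes (3.99%) in the whole table. Lists of related genes held it too: 2 of 4 other OAS genes, 3 of 8 other antiviral RNA effectors and 4 of 10 interferon genes. It was also found in 2 of 7 genes of the interferon receptor and ISGF3, and in 1 of 17 adaptors, kinases and cofactors of RNA sensing. The windows of Oasl1 and Oasl2 did not hold these letters. Below, capitals mark the motif, and all 5 stretches run 5′ to 3′ on the gene's own strand, which is the minus strand in each case. Oas1g, the nearest Oas1 copy, is printed beside Oas1a because both genes share reads.
Oas1a, chr5:120907526-120907565: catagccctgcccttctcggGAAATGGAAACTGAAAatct
Oas1g, chr5:120887614-120887651: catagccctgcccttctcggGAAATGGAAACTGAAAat
Oas3, chr5:120777705-120777754: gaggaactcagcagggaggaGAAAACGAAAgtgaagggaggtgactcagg
Rsad2, chr12:26456543-26456592: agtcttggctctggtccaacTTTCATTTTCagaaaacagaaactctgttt
Ifih1, chr2:62646206-62646233: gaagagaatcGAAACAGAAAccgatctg
In Oas1a 2 motifs overlap, with first bases at positions -20 and -14 from the gene start. Oas1g has the same pair at -18 and -12, and its first 38 printed bases equal those of Oas1a (38 of 38). The Oas3 motif starts at -75. In Rsad2 it starts at -120 on the opposite strand, so the printed strand shows TTTC at each end of it. In Ifih1 it lies after the gene start, at 33. These matches describe letters in a window; binding was not measured.

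The microglia libraries held between 10.3 M and 14.5 M counts and the astrocyte libraries between 10.7 M and 15.6 M. A set of 8 microglia markers (such as Cx3cr1 and P2ry12) summed to 13315 to 17084 CPM (counts scaled to a common library total) in microglia and to 211 to 577 CPM in astrocytes. A set of 10 astrocyte markers (such as Aqp4 and Gfap) summed to 15292 to 20361 CPM in astrocytes and to 332 to 735 CPM in microglia. Both sorts thus carried the markers of their label, with the other type's markers present at a few percent. Markers of choroid plexus and ependyma were also present, at 344 to 2129 CPM in microglia, and those of oligodendrocytes reached 3990 CPM in 1 astrocyte library, WT 3. Abundant non-coding RNAs (8 transcripts) made up 11.8% to 15.4% of a microglia library and 26.2% to 39.5% of an astrocyte library. Kpna4 RNA was present in all libraries. Its means were 84.4 ± 14.8 CPM (WT) and 69.0 ± 9.41 CPM (KO) in microglia, and 49.6 ± 8.81 CPM (WT) and 64.4 ± 18.6 CPM (KO) in astrocytes (SD, n = 3). The genotypes overlapped in either cell type, with log2 fold changes of -0.31 (SE 0.21, edgeR adjusted p 0.778) and 0.47 (SE 0.23, edgeR adjusted p 0.999). The deleted part of the gene is not given, so these counts do not check the genotype labels, and KO below means the libraries labelled KO.

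The 3 classical synthetases were microglial in level. Oas1a, which makes the oligoadenylate signal on binding double-stranded RNA, was at 30.2, 38.8 and 44.5 CPM in WT microglia and at 26.6, 23.5 and 20.7 CPM in KO microglia. The WT astrocytes held 1.80, 0 and 3.35 CPM and the KO astrocytes 0, 0.279 and 3.27 CPM. All 6 microglia libraries lay above all 6 astrocyte libraries, and the KO microglia lay wholly below the WT microglia. The counting split reads between Oas1a and its neighbour Oas1g, with no annotated gene between them: their estimated counts were not whole in 7 of 12 libraries each (tolerance 0.001), while their sum was whole in all 12. Summed, the pair was at 34.5, 44.0 and 48.6 CPM in WT and at 29.5, 25.7 and 22.5 CPM in KO microglia, so the order of the groups does not rest on the split. The split itself is uncertain for either gene.

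Oas2, a larger synthetase with a duplicated catalytic unit, was at 33.1, 54.6 and 29.7 CPM in WT microglia and at 29.7, 26.3 and 24.9 CPM in KO microglia. Its astrocyte values were 2.73, 0 and 3.97 CPM for WT, and 2.04, 0.372 and 1.73 CPM for KO. The genotypes overlapped in astrocytes, and in microglia the highest KO library lay only just under the lowest WT library, at 306 against 391 counts of different totals. Oas3, the largest of the synthetases, had the lowest level per length of the 10 in each group. It was at 6.41, 4.93 and 8.98 CPM in WT microglia and at 2.13, 1.84 and 2.89 CPM in KO microglia. In astrocytes it had 5, 0 and 10 counts in WT and 0, 0 and 14 counts in KO. A 0 allows up to 3 counts per library, which is 0.244 to 0.279 CPM in the libraries at 0 (counting error only). The microglia genotypes did not overlap, and the astrocyte values were too low to order.

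The 2 OAS-like genes, neighbours on the chromosome with no annotated gene between them, behaved unlike each other. Oasl1, which lacks synthetase activity and is known to restrain translation of Irf7, was at 15.003, 8.34 and 15.97 CPM in WT microglia and at 1.45, 5.27 and 5.78 CPM in KO microglia. The WT astrocytes held 3.02, 0 and 2.60 CPM of it and the KO astrocytes 1.45, 0 and 0.257 CPM. The lowest microglia library, KO 1, was therefore inside the astrocyte range. Oasl2, which keeps synthetase activity, was at 64.0, 98.3 and 92.7 CPM in WT microglia, at 75.4, 58.9 and 94.0 CPM in KO microglia, at 53.5, 65.5 and 116 CPM in WT astrocytes and at 32.1, 31.4 and 45.9 CPM in KO astrocytes. Here the KO astrocytes stood apart, below all other libraries, while the other 3 groups overlapped. An annotated antisense gene, Gm13822, overlaps an exon of Oasl1 by 38 bases, and the libraries do not mark strand, so reads there cannot be assigned to 1 of the 2.

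Mx1 and Mx2 encode GTPases that block virus replication in the nucleus and the cytoplasm, respectively. Mx1 was at 63.2, 64.1 and 48.8 CPM in WT and at 58.4, 41.9 and 49.0 CPM in KO microglia. Its astrocyte values were 6.26, 1.63 and 2.60 CPM in WT and 2.38, 1.02 and 2.12 CPM in KO. Mx1 thus separated the cell types in every library and the genotypes in neither cell type. Mx2 was at 29.2, 31.9 and 27.9 CPM in WT and at 21.1, 30.2 and 23.0 CPM in KO microglia. In astrocytes it was at 8.06, 7.40 and 10.1 CPM in WT and at 4.51, 2.61 and 6.16 CPM in KO, so the KO astrocytes lay wholly below the WT astrocytes. RefSeq lists both genes as transcribed pseudogenes in its reference strain, so the RNA level says nothing of a working protein here. The counting split reads between Mx1 and Mx2 in 1 library only, astrocytes KO 1 (28.36 and 52.64 estimated counts).

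Rsad2 (viperin), an enzyme that makes a chain-terminating nucleotide, was the only one of the 10 with a higher mean in astrocytes. It was at 22.2, 20.0 and 16.5 CPM in WT and at 6.01, 12.05 and 12.4 CPM in KO microglia. The astrocytes held 19.4, 13.7 and 33.1 CPM (WT) and 8.42, 12.3 and 21.7 CPM (KO). The microglia genotypes did not overlap, the astrocyte genotypes did, and the cell types overlapped within each genotype.

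Of the sensors, Ifih1 encodes MDA5, which binds long double-stranded RNA, and was at 40.6, 81.4 and 71.0 CPM in WT and at 71.1, 53.3 and 57.1 CPM in KO microglia. In astrocytes it was at 24.4, 25.1 and 33.1 CPM in WT and at 22.7, 17.7 and 25.6 CPM in KO, with genotypes overlapping in both cell types. Dhx58 encodes LGP2, a helicase without signalling domains that modulates MDA5. It was at 36.2, 40.2 and 59.9 CPM in WT and at 24.3, 36.1 and 41.6 CPM in KO microglia, and at 1.37, 7.40 and 3.69 CPM in WT and 1.28, 4.10 and 2.82 CPM in KO astrocytes. The mean of WT microglia was 10.9 times that of WT astrocytes for Dhx58 and 2.34 times for Ifih1. The antisense gene Dhx58os overlaps a Dhx58 exon by 141 bases, and reads there cannot be assigned without strand.

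**Figure D1:**
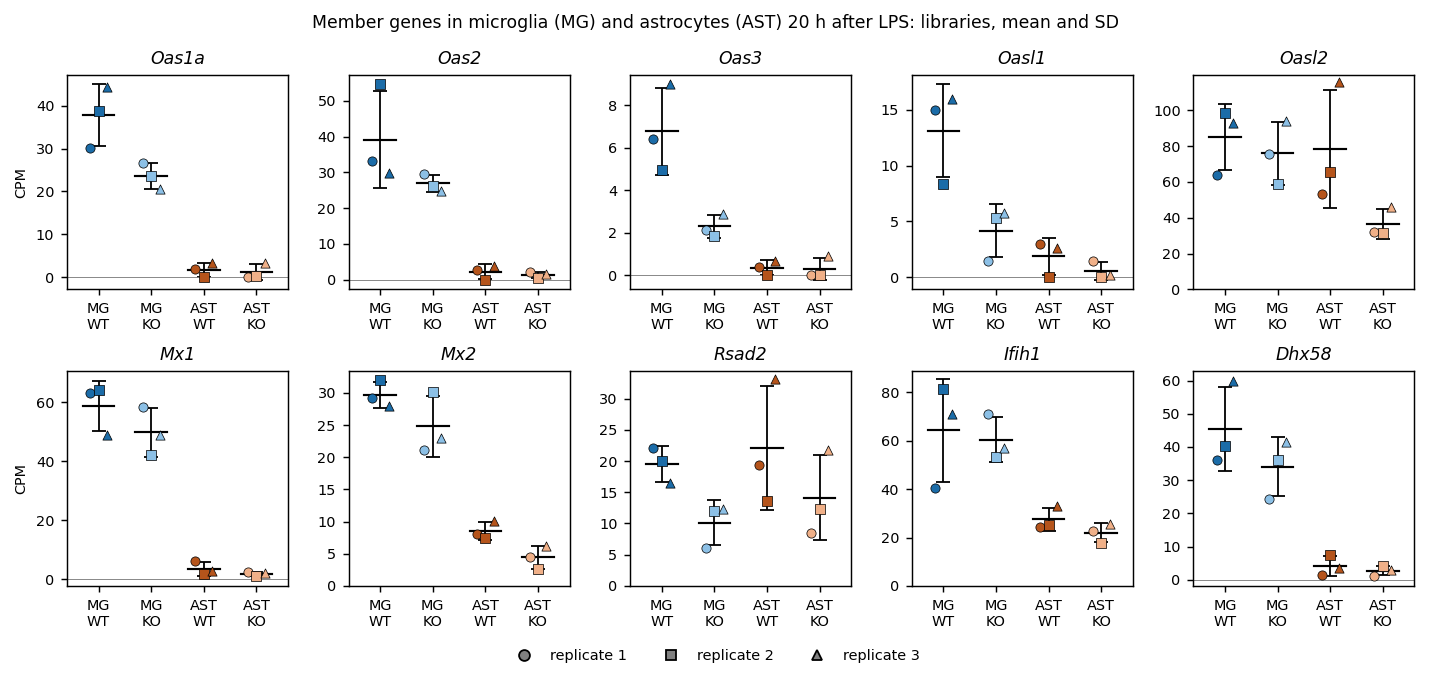
CPM (linear axes from 0, a scale of its own for each gene) of the 10 genes in microglia (MG) and astrocytes (AST), WT and KO, 20 h after LPS; symbols are libraries by replicate number, the long bar is the group mean and the whiskers 1 SD (n = 3). Oas1a, Oas2, Oas3, Mx1 and Dhx58 are near 0 in astrocytes, whereas Oasl2 reaches 116 CPM and Rsad2 33.1 CPM there.

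Levels of different genes were compared per length, as CPM per kilobase of the longest annotated transcript. In WT microglia the order of the means was Oasl2 (27.2), Oas1a (20.1), Dhx58 (18.8), Mx1 (17.3), Mx2 (11.99), Ifih1 (11.8), Oas2 (9.89), Oasl1 (6.01), Rsad2 (4.67) and Oas3 (1.43). The libraries of neighbours in this order overlapped except at 3 steps, between Mx1 and Mx2, between Oas2 and Oasl1, and between Rsad2 and Oas3. In WT astrocytes the order was Oasl2 (25.0), Rsad2 (5.27), Ifih1 (5.03), Mx2 (3.44), Dhx58 (1.72), Mx1 (1.03), Oas1a (0.910), Oasl1 (0.859), Oas2 (0.564) and Oas3 (0.0737). Oasl2 stood above Rsad2 and Ifih1 above Mx2 without overlap. All other neighbours overlapped there. Among the WT means, Oasl2 thus led in both cell types and Oas3 was last in both. By the same WT means Rsad2 moved from the ninth place in microglia to the second in astrocytes. In KO the mean of Rsad2 was 2.42 in microglia, above Oasl1 (1.91), and 3.37 in astrocytes, below Ifih1 (4.02).

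Between cell types, 8 of the 10 genes passed the test, and all 8 were higher in microglia (edgeR, adjusted p under 0.05, 1 fit of 12 libraries). The contrast is broad: 64.6% of 17294 genes were called, 28.2% as higher in microglia and 36.4% as lower. The median log2 difference of the 10 genes was 2.92, against -0.19 over all genes tested. Mx1 had the largest difference on the log2 scale, 4.14 (SE 0.32, edgeR adjusted p 3.21e-08), followed by Oas1a at 4.10 (SE 0.74, adjusted p 0.000201) and Oas2 at 3.95 (SE 0.57, adjusted p 2.66e-05). Oas3, at 3.32 (SE 0.98), Dhx58, at 3.22 (SE 0.42), and Oasl1, at 2.63 (SE 0.85), also passed. Mx2 and the MDA5 gene Ifih1 differed less, by 1.88 (SE 0.24) and 1.06 (SE 0.18). For Oasl2 the difference was 0.31 (SE 0.20, edgeR adjusted p 0.179). It passed without the animal WT 3 (0.55, adjusted p 0.0348) or without KO 2 (0.58, adjusted p 0.0489), where 9 of the 10 were called. Rsad2 was at -0.59 (SE 0.31, adjusted p 0.104), on the astrocyte side of 0. In 7 of the 10 genes all microglia libraries lay above all astrocyte libraries, as in 24.9% of all genes tested. The exceptions were Oasl1, Oasl2 and Rsad2.

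Within an animal, the microglia library was above the astrocyte library in all 6 animals for Oas1a, Oas2, Oas3, Mx1, Mx2, Ifih1 and Dhx58. For these genes this follows from the separation of all libraries given above and adds no paired evidence. For Oasl1 the animal KO 1 had 1.45 CPM in each library, a difference of -0.24 in log2 CPM scaled by TMM. For Oasl2 it was WT 3, at -0.42. Rsad2 was below 0 in 4 of 6 animals, down to -1.10 in WT 3. Its exceptions were WT 1 and WT 2, at 0.13 and 0.22.

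**Figure D2:**
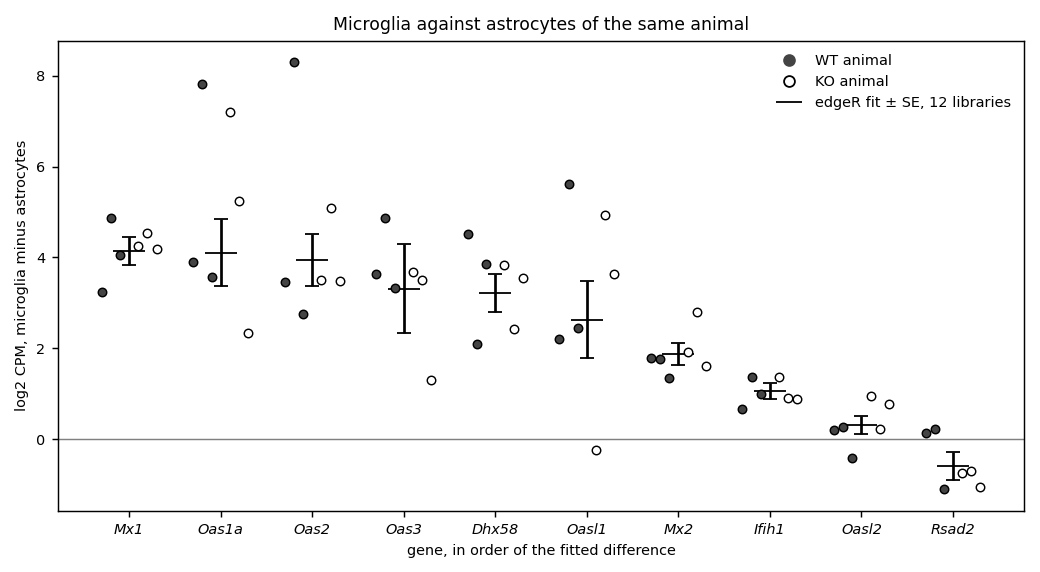
Difference in log2 CPM (TMM factors, prior count 2) between the microglia and the astrocyte library of each animal, filled circles WT and open circles KO (3 animals each), in the order of the fitted difference; bars show the edgeR estimate and its SE from 12 libraries. Mx1 is at 4.14, Oasl2 at 0.31 and Rsad2 at -0.59, and the animals spread widely where the astrocyte library has 0 counts.

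Because microglia markers were present in the astrocyte libraries, each gene's astrocyte level was set beside theirs. Expressed as a percentage of the mean of the 6 microglia libraries, the 8 microglia markers together were at 1.46% to 3.97% in the astrocyte libraries (median 2.53%). The medians of Oas1a (3.38%), Oas3 (3.97%), Mx1 (4.15%) and Oas2 (5.71%) were within or close to that range, but their libraries spread on both sides of it. Oas1a ran from 0% to 10.9%, Oas3 from 0% to 19.8%, Mx1 from 1.89% to 11.5% and Oas2 from 0% to 11.996%. Dhx58 was at 3.21% to 18.6% (median 8.20%) and Oasl1 at 0% to 35.0% (median 9.85%). In 4 genes every astrocyte library was above the highest marker share. Mx2 was at 9.57% to 37.2%, Ifih1 at 28.3% to 53.0%, Oasl2 at 38.9% to 143% and Rsad2 at 56.7% to 223%. How much of the low astrocyte signal of the other genes came from microglia in the sort was not tested. In bulk libraries such as these, fewer cells of a type and less RNA per cell cannot be told apart.

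**Figure D3:**
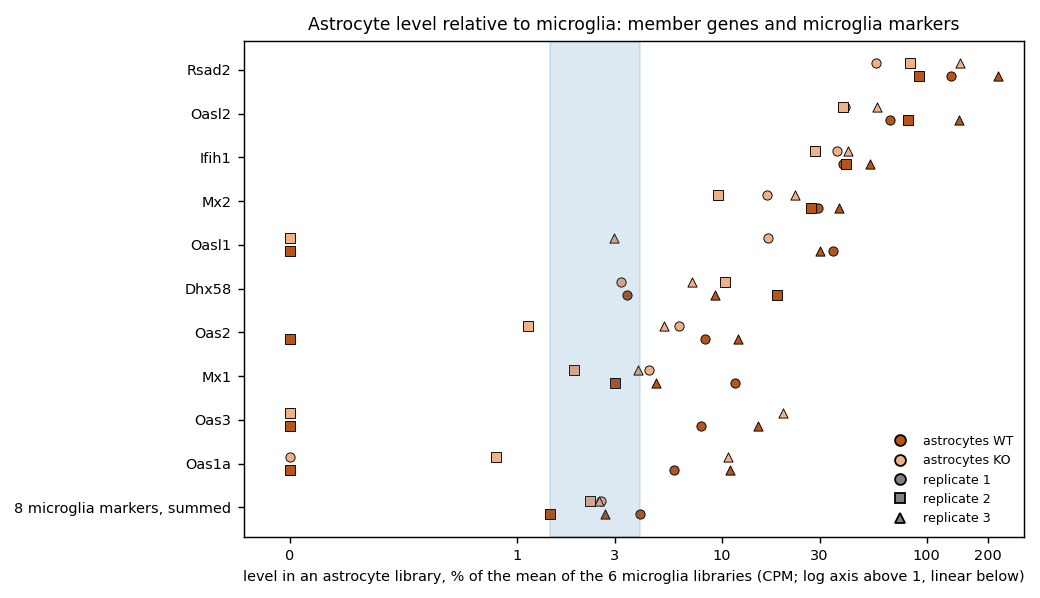
Level of each gene in the 6 astrocyte libraries as a percentage of its mean in the 6 microglia libraries (CPM; log axis above 1, linear below), with the summed microglia markers in the lowest row and their range as a shaded band. Mx2, Ifih1, Oasl2 and Rsad2 lie to the right of the band in all 6 libraries; symbols at 0 coincide for Oas3 (KO 1 and KO 2).

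In microglia the KO libraries had lower mean levels than the WT libraries for each of the 10 genes, and no difference passed the test. edgeR called 0 of 10, as it called 0% of 14191 genes, and DESeq2 and voom called 0 of the 10 as well. All 10 log2 fold changes were below 0, where 50.1% of all genes were, with a median of -0.50 against -0.00128 over all genes. Unadjusted p was under 0.05 for 4 genes, all lower in KO, against 5.07% of all genes in that direction. They were Oasl1 (log2 fold change -1.67, SE 0.51), Oas3 (-1.58, SE 0.55), Rsad2 (-0.97, SE 0.34) and Oas1a (-0.70, SE 0.24), with edgeR adjusted p of 0.542 for Oasl1 and 0.587 for the other 3. The remaining 6 had log2 fold changes of -0.56 (Oas2, SE 0.27), -0.43 (Dhx58, SE 0.26), -0.28 (Mx2, SE 0.25), -0.27 (Mx1, SE 0.22), -0.18 (Oasl2, SE 0.23) and -0.11 (Ifih1, SE 0.25), and adjusted p up to 0.946. KO lay wholly below WT in 5 of the 10, namely Oas1a, Oas2, Oas3, Oasl1 and Rsad2, as in 6.57% of all genes tested. The sign of Ifih1 turned without WT replicate 2, to 0.11. Members of the same pathway share their cells and animals, so 10 genes are not 10 separate observations. The 10 were also chosen with earlier results of these data known, so their shared direction beside the share of all genes is a description, not a test.

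Choroid plexus and ependyma markers had a lower mean sum in KO than in WT microglia, with overlapping libraries. The 6 markers summed to 846 to 2129 CPM in WT and to 344 to 868 CPM in KO microglia, and none of the 6 was at 0 in all libraries of a group. The sum had means of 1345 and 582 CPM, of which Ttr alone had 1235 and 541 CPM. Ccdc153 was the only marker with a higher mean in KO microglia (0.65 CPM in WT and 1.06 CPM in KO). The log2 sum of the 6 markers was then used as a covariate, chosen after the data were seen. In that fit 8 of the 10 log2 fold changes were below 0, with a median of -0.64. Only KO 3 (868 CPM) lay above the lowest WT library (846 CPM), so genotype and marker sum can hardly be told apart there. Oasl2 and Dhx58 turned to 0.078 and 0.18. Oasl1 was at -1.04, Oas3 at -1.14, Rsad2 at -0.85 and Oas1a at -0.67 in that fit. Astrocyte markers were at 332 to 735 CPM in WT and 355 to 383 CPM in KO microglia, and lymphocyte markers were at or under 0.753 CPM in every microglia library. Oligodendrocyte markers were at 276 to 1731 CPM in WT and 314 to 775 CPM in KO microglia. Endothelial markers were at 16.5 to 61.8 CPM in WT and 16.4 to 25.8 CPM in KO, and mural cell markers at 6.28 to 21.4 CPM and 4.68 to 11.2 CPM. Each of these 3 sums had a lower mean in KO microglia with overlapping libraries, and their part in the genotype differences was not tested.

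In astrocytes 9 of the 10 genes passed the filter on low counts, Oas3 being left out, and edgeR called 0 of the 9 and 0% of 15755 genes. DESeq2 and voom likewise called 0 of the 9. All 9 log2 fold changes were below 0, against 50.6% of all genes, with a median of -0.60 against -0.00684. As in microglia, this is a description of genes chosen with earlier results of these data known. Only Oasl2 had an unadjusted p under 0.05. Its log2 fold change was -0.97 (SE 0.28) and its unadjusted edgeR p of 0.00535 was the nineteenth smallest of all genes, with an adjusted p of 0.999. Genes lower in KO at that unadjusted threshold made up 1.24% of those tested. Its means were 78.2 ± 32.9 CPM in WT astrocytes and 36.5 ± 8.18 CPM in KO astrocytes (SD, n = 3). Over the alternatives its log2 fold change stayed between -1.17 and -0.64. Mx2 followed with -0.85 (SE 0.52), from 8.53 ± 1.42 to 4.42 ± 1.78 CPM (SD, n = 3 each). KO lay wholly below WT in these 2 of the 10 genes, as in 5.74% of all genes tested.

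Of the other astrocyte differences, that of Rsad2, -0.50 (SE 0.42), was a little larger than its error. Dhx58 at -0.44 (SE 0.88), Ifih1 at -0.21 (SE 0.26) and Mx1 at -0.84 (SE 0.93) were within theirs. Oas1a (-0.42, SE 1.74), Oas2 (-0.60, SE 1.44) and Oasl1 (-1.67, SE 1.76) rested on libraries with 0 counts, and their errors were larger than the differences. The direction of Oas1a, Oas2 and Dhx58 changed when single libraries were left out: Oas1a was at 0.43 without WT 3 and 0.16 without KO 1, Oas2 at 0.035 without WT 3, and Dhx58 at 0.36 without WT 2. The median of the 9 was -0.998 without WT 2. Choroid plexus and ependyma markers were at 820 to 1237 CPM in WT and 691 to 935 CPM in KO astrocytes, and with their sum as a covariate the median was -0.19 and 6 of 9 were below 0. Oasl2 was at -0.90 and Mx2 at -0.71 in that fit. Oligodendrocyte markers were at 854 to 3990 CPM in WT and 898 to 1839 CPM in KO astrocytes, and microglia markers at 211 to 577 CPM in WT and 331 to 372 CPM in KO astrocytes. With the microglia markers as a covariate the median was -0.47, and the part of the oligodendrocyte markers was not tested.

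**Figure D4:**
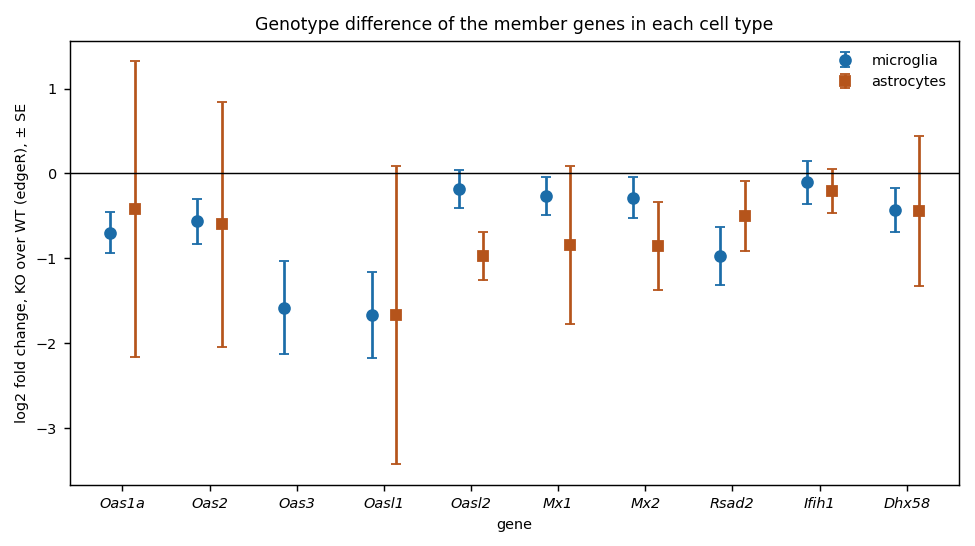
Log2 fold change of KO over WT (edgeR, whiskers 1 SE) in microglia (circles, 6 libraries) and astrocytes (squares, 6 libraries); Oas3 did not pass the low-count filter in astrocytes. All plotted points are below 0, none passed an adjusted p under 0.05, and the whiskers reach past 0 for Oas1a, Oas2, Oasl1, Mx1, Ifih1 and Dhx58 in astrocytes and for Oasl2 and Ifih1 in microglia.

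Whether the genotype difference itself differed between astrocytes and microglia was tested in the fit of 12 libraries. edgeR called 0 of the 10 genes, as 0% of 17294, and none of the 10 had an unadjusted p under 0.05, against 6.37% of all genes. DESeq2 and voom called 0 of the 10. Oasl2, the gene with the smallest p of the 10, had a difference of -0.70 (SE 0.40, edgeR adjusted p 0.850), toward a lower KO level in astrocytes. The adjusted p of the other 9 were between 0.968 and 1.00. The 2 cell types of an animal come from the same brain, so the WT and KO differences in microglia and astrocytes are not separate samples of animals.

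The upstream sensing genes were measured beside the 10. Of 18 adaptors, kinases and cofactors of RNA sensing, 12 were called as higher in microglia than in astrocytes and 3 as lower (edgeR, background as above), with a median log2 difference of 0.95. Ddx58, the gene of RIG-I, was at 73.5 ± 9.92 CPM in WT microglia and 34.5 ± 2.71 CPM in WT astrocytes (SD, n = 3 each), a log2 difference of 1.02 (SE 0.18, edgeR adjusted p 0.000132), beside 1.06 for its relative Ifih1. Mavs differed by 1.12 (SE 0.22) and Irf7, the interferon-inducing factor that Oasl1 restrains, by 1.39 (SE 0.26). The smallest adjusted p of the list belonged to Irf5 (5.12, SE 0.36), Tbk1 (1.44, SE 0.17) and Ticam1 (1.60, SE 0.21), a transcription factor, a kinase and the adaptor of Tlr3. The 3 lower genes were named after their values were seen. Zcchc3, a cofactor of RNA sensors, was at -2.86 (SE 0.43, edgeR adjusted p 3.53e-05). Tlr3, the endosomal receptor of double-stranded RNA, was at -0.53 (SE 0.20, adjusted p 0.0272), and the ubiquitin ligase gene Rnf125 at -2.63 (SE 1.10, adjusted p 0.0472). The call of Tlr3 was lost without WT 1, WT 2, KO 1, KO 2 or KO 3 (adjusted p up to 0.343), and that of Rnf125 without any single animal (adjusted p up to 0.147). Both also missed the threshold without the 8 abundant non-coding RNAs, at adjusted p of 0.0636 and 0.0503.

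The effectors and the interferon pathway showed the same side. All 10 other antiviral RNA effectors were called as higher in microglia (median 2.03), where 28.2% of all 17294 genes tested were. The kinase gene Eif2ak2 differed by 1.40 (SE 0.20), and the smallest adjusted p were those of Apobec3 (3.17, SE 0.17), Zc3hav1 (1.997, SE 0.16) and Samhd1 (2.20, SE 0.20), which encode a cytidine deaminase, an RNA-binding zinc finger protein and a nucleotide hydrolase. Of the 9 genes of the interferon receptor and ISGF3 list, 8 were called as higher in microglia (median 1.11), led by Tyk2 (2.41, SE 0.21), Ifnar2 (1.80, SE 0.15) and Stat2 (1.55, SE 0.19). Irf9 differed by 1.00 (SE 0.18). Of 7 other OAS genes, 3 were tested and Oas1g and Oas1c were called as higher in microglia. Both had 0 counts in all KO astrocyte libraries, and 4 genes of that list had 0 counts in all 12 libraries.

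None of these lists held a gene called between KO and WT. The 3 tested genes of the other OAS list had a median of 0.14 in microglia. They were Oas1b (0.14, SE 0.55), Oas1c (0.32, SE 0.86) and Oas1g (-1.03, SE 0.63). Only Oas1b of that list was tested in astrocytes, at -1.40 (SE 1.79). For the other lists the medians in microglia were 0.02 for 17 tested sensing genes, 0.14 for 10 effectors and 0.000321 for 9 receptor and ISGF3 genes. Unadjusted edgeR p was under 0.05 for 3, 0 and 2 of their genes. These 5 genes (Ikbke, Traf3, Zcchc3, Tyk2 and Usp18, named after their values were seen) all had log2 fold changes below 0, the direction that 5.07% of all genes took at that threshold. In astrocytes the medians of these lists were -0.05 for 18, -0.03 for 10 and -0.33 for 9 genes, with 0, 1 and 1 genes at that threshold. The effector, Zc3hav1, was below 0 and the receptor gene, Ifnar2, above it, against 1.24% of all genes below 0 at that threshold. Stat2 and Irf9 in astrocytes were at -0.55 (SE 0.32) and -0.54 (SE 0.28), and neither was called. Ddx58 was at -0.15 (SE 0.19) in microglia and -0.43 (SE 0.29) in astrocytes. Whether the medians of the lists differ from that of the 10 was not tested.

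The interferons themselves were close to absent from the counts. None of 10 ligand genes passed the low-count filter in any fit, and 4 had 0 counts in all 12 libraries. Ifnb1 had 12 counts over the 3 WT microglia libraries and 0 in each of the other 9 libraries. A count of 0 allows up to 3 counts per library, so a difference between the groups was not detectable at this depth.

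With the libraries of all 4 groups pooled, the deviations of the 10 genes from their group means did not all run together. Over 45 pairs of genes, Pearson's r of the deviations from the group means over 12 libraries ran from -0.90 to 0.91, with a median of 0.31, and the 12 libraries share 6 animals. Against the mean of the other 9, Oas3 had an r of 0.86 and Oas1a of 0.82, while Dhx58 was at -0.52. Averaged over the 10, the deviation in log2 CPM was within -0.20 to 0.18 in microglia. In astrocytes it ranged from -1.03 in WT 2 to 0.70 in WT 3, the library in which oligodendrocyte markers were highest. In WT 2 the deviations of Oas1a (-2.74), Oas2 (-3.01), Oas3 (-1.41) and Oasl1 (-2.86) came from 0 counts and depend on the prior count. The other genes ran there from -0.75 (Mx1) to 1.18 (Dhx58), with Oasl2 at -0.09. The r in this paragraph include these 0 counts. Deviations of Oas1a, Oas2, Oas3 and Oasl1 were largest in astrocytes, so their r rest mostly on the astrocyte libraries. No r was taken within microglia alone or for pairs of other genes. Among the genes whose levels over the 12 libraries were most like the mean of the 10 were Eng (r = 0.98), Gm5431 (0.98), Slc2a6 (0.98) and H2-T24 (0.98), among 17284 genes. Since the libraries fall into 2 cell types, these r mostly describe the cell type difference. By deviations from the group means they were Man2a1 (0.98), Gm33703 (0.97), Rnf166 (0.96), Tgfb1 (0.96) and Gm31432 (0.96), of which Gm33703 and Gm31432 were listed at 0 in both microglia groups.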

How the data were processed

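RNA was measured in sorted microglia and astrocytes, 3 libraries for each of 4 groups, after SMART-Seq HT full-length cDNA amplification and Nextera preparation, per the labels' protocols; there are no molecular identifiers and strand is not marked. The authors deposited estimated counts, unnormalized, as 1 table per cell type with a row for each symbol. The submitters' processing notes name STAR 2.7.10b, RSEM 1.3.3, limma and GRCm39, with no role or order; the annotation was not given in the sources used here. Estimated counts were rounded to whole numbers. CPM use the library total, and per-kilobase values the longest GENCODE M21 transcript of the symbol.

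Groups were compared by the quasi-likelihood F test of edgeR 4.0.16 (R 4.3.3; TMM, filterByExpr with a minimum count of 10, Benjamini-Hochberg over all genes tested), called at an adjusted p under 0.05. KO and WT were compared within the 6 libraries of a cell type; the cell types and the interaction came from 1 fit of 12 libraries. SE is the log2 fold change divided by the square root of F. Scripts were tested on simulated data. Alternatives were DESeq2 1.42.0, voom (limma 3.58.1), other scaling, filters of 50 or 1 count, thinning, exclusion of 8 abundant non-coding RNAs, each replicate left out, blocks, marker covariates, and Oas1a and Oas1g summed; the last and the choroid plexus covariate were chosen after the data were seen.

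The genes and lists were chosen with earlier results of these data known. Named genes were Kpna4, the 10 genes, 9 fixed pathway genes, up to 3 called genes with the smallest adjusted p per list, and the 5 genes most like the mean of the 10 in levels and in deviations. Some genes that this rule names are not reported here. The labels pair the 2 libraries of an animal; across genes, the correlation of their deviations was 0.0168, 0.0784 and 0.0929 for WT and 0.0616, 0.00224 and 0.0551 for KO animals. Depth ranged from 10.3 M to 15.6 M counts; counting limits leave out amplification error.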

Additional observations from a re-analysis of the deposited data

How the results depend on the processing

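The counts of the 10 genes called stayed at 0 in microglia, in astrocytes and for the difference between cell types under all alternatives run, and at 8 or 9 between cell types. The median log2 fold change in microglia was between -0.64 and -0.37. In astrocytes it ran from -0.998 to -0.56 with 1 replicate left out (-0.998 without WT replicate 2, -0.93 without KO replicate 3) and was -0.19 with the choroid plexus covariate. The median between cell types was 3.43 with voom and 2.85 to 3.28 with 1 animal left out. Signs turned in microglia for Ifih1 with a replicate left out (-0.35 to 0.11) and, with the choroid plexus covariate, for Oasl2 (0.078) and Dhx58 (0.18). In astrocytes Oas2 was at 0.32 with voom, 0.30 with the microglia marker covariate, 0.81 with the choroid plexus covariate and -1.18 to 0.035 with a replicate left out. Oas1a was at 0.39 and 2.88 with these covariates and at -3.21 to 0.43 with a replicate left out, Rsad2 at 0.00457 with the choroid plexus covariate, and Dhx58 at -1.03 to 0.36 with a replicate left out. The cause of these changes was not tested.

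With the animal as a block the median between cell types was 3.36, with 8 genes called, and Rnf125 was at -2.48 (adjusted p 0.159). For same-numbered WT and KO libraries the correlations of deviations were 0.14, 0.06 and 0.25 (microglia) or -0.02, 0.05 and 0.27 (astrocytes). The 2 libraries of an animal, which the labels pair, had 0.00224 to 0.0929. The values of an animal compare 2 cell types, so they are no yardstick for pairs of libraries within 1 cell type. Whether the number pairs WT with KO was therefore not settled by these correlations. With the replicate number as a block the medians were -0.48 and -0.54, Oas2 in astrocytes was at 0.25, and 0 genes were called in either cell type. In astrocytes Oas1a, Oas2, Oas3 and Oasl1 had 0 counts in 1 to 3 libraries, which limits any statement on them.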
